A study of Mus musculus with 18 samples.

Results

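The mouse mitochondrial genome encodes 7 subunits of respiratory complex I and 3 subunits of complex IV, and the transcripts of these 10 genes (mt-Nd1, mt-Nd2, mt-Nd3, mt-Nd4, mt-Nd4l, mt-Nd5, mt-Nd6, mt-Co1, mt-Co2 and mt-Co3) are described here. They were chosen by symbol and by function, not by their values, and are 10 of 21954 genes in the table of counts. All 10 were among the 12514 genes that passed the filter on low counts. RNA was sequenced from macrophages that had been grown from mouse bone marrow. The L13a knockout groups (KO) lack ribosomal protein L13a by their label and were treated with interferon (KO_IFN), treated with interleukin-4 (KO_IL4) or left untreated (KO_none). The wild-type groups (WT), called control in the titles, had the same treatments (WT_IFN, WT_IL4 and WT_none). Each of the 6 groups held 3 libraries, which are named by the number in their titles: 1 to 3 untreated, 4 to 6 after IFN and 7 to 9 after IL4, in both genotypes. The labels give no strain, age, dose, time or type of interferon, nor the promoter behind the knockout, and do not say if each library was made from an animal of its own. The p-values therefore measure the spread between libraries, which may be technical.

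Complex I takes electrons from NADH at the start of the respiratory chain, and complex IV, cytochrome c oxidase, passes them to oxygen at its end. Both pump protons across the inner mitochondrial membrane. Their mitochondrially encoded subunits form the membrane core of complex I and the catalytic core of complex IV, and the remaining subunits come from nuclear genes. The mitochondrial genes are transcribed as long precursors from each strand of the circular genome, and most messages are freed by excision of the transfer RNAs that lie between them. Macrophages activated by interferon and bacterial products are known for a metabolism that leans on glycolysis, and macrophages activated by IL4 for one that leans on oxidative phosphorylation.

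In GENCODE vM21 on the GRCm38 build, 9 of the 10 genes are read from the plus strand of chromosome M and mt-Nd6 from the minus strand. In genome order the members are mt-Nd1 (2751 to 3707), mt-Nd2 (3914 to 4951), mt-Co1 (5328 to 6872), mt-Co2 (7013 to 7696), mt-Co3 (8607 to 9390), mt-Nd3 (9459 to 9806), mt-Nd4l (9877 to 10173), mt-Nd4 (10167 to 11544), mt-Nd5 (11742 to 13565) and mt-Nd6 (13552 to 14070). The genes have no introns, run from 297 bases (mt-Nd4l) to 1824 bases (mt-Nd5), and hold 33.0% (mt-Nd3) to 41.1% (mt-Nd4l) G and C. The ends of mt-Nd3 are shown because it was the member that passed the test in any comparison and the one whose level departed most from the others. It has a gap of 68 bases to mt-Co3 and of 70 bases to mt-Nd4l, each holding a transfer RNA gene. Capitals mark its first codon, ATT, and its stop codon.
mt-Nd3 first 60 bases (chrM:9459-9518, plus strand): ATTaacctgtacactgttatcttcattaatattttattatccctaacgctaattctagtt
mt-Nd3 last 60 bases (chrM:9747-9806, plus strand): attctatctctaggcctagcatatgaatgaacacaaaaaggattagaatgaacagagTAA

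The next sequences show which members share bases and so can share reads. The last 7 bases of mt-Nd4l are the first 7 of mt-Nd4, on the same strand, and the capitals mark them.
mt-Nd4l last 30 bases (chrM:10144-10173, plus strand): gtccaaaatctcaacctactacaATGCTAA
mt-Nd4 first 30 bases (chrM:10167-10196, plus strand): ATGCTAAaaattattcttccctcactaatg
The last 14 bases of mt-Nd5 and of mt-Nd6 lie over each other on opposite strands, and in the capitals each is the reverse complement of the other.
mt-Nd5 last 30 bases (chrM:13536-13565, plus strand): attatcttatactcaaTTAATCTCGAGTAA
mt-Nd6 last 30 bases (chrM:13552-13581, minus strand): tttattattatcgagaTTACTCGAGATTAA
The library protocol in the labels allows for directional or non-directional libraries, so reads of mt-Nd6 and of RNA antisense to it cannot be told apart. The last stretch shows an end without a stop codon: mt-Co3, like mt-Nd4, stops after a lone T (in capitals), which the poly(A) tail completes.
mt-Co3 last 30 bases (chrM:9361-9390, plus strand): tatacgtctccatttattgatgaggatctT
Copies of mitochondrial sequence in the nuclear genome can also share reads with the members. In a search against all other GENCODE vM21 transcripts, 9 of the 10 members had a match, and for 6 of them it covered at least 95% of the gene, at an identity of 93.6% or more. The match of mt-Nd3, Gm28438 on chromosome 1, covered 99.1% of the gene at 99.7% identity. Of mt-Co2 and mt-Co3 the matches, Gm28661 and Gm28437, were identical over 99.6% and 99.9% of the gene, and mt-Nd1 had no match. A gene matched by a member was a row of the count table for 1 member, mt-Nd5. How the authors' counting shared such reads is not given in the sources used here, so the levels of the 9 members with a match are uncertain by reads from such copies. The search held annotated transcripts only, so copies outside them could not be found, for mt-Nd1 as well.

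Total expected counts ran from 18098711 to 28477342 per library. Rpl13a, the gene of the L13a protein, averaged 287 ± 123, 382 ± 204 and 253 ± 130 CPM (counts scaled to library size by TMM) in KO_IFN, KO_IL4 and KO_none, against 536 ± 91.3, 736 ± 135 and 703 ± 73.8 CPM in WT_IFN, WT_IL4 and WT_none (SD, n = 3 each). The libraries labelled KO 3, 6 and 9 had the highest level of their groups, at 400.5, 425 and 606 CPM, and the library labelled KO_IL4 9 lay above WT_IL4 7 (598 CPM). The labels do not say which part of the gene was removed, so reads from other parts may count here, and the label of that library is not checked by Rpl13a. Lyz2, the lysozyme gene of macrophages, stood at 2.35 to 4.37 CPM as a mean of the KO groups and at 3357 to 11180 CPM in the WT groups, with every KO library far below every WT library, so a comparison of genotypes cannot tell the loss of L13a apart from a change at Lyz2. The summed level of 8 macrophage markers was 6922 to 11290 CPM in the KO libraries and 7089 to 9540 CPM in the WT libraries, with none of the 8 at 0. Y-linked transcripts were found in 0 of 9 KO and 5 of 9 WT libraries (IFN 4 and 5, IL4 7 and 8, untreated 1). Libraries 2 and 3 of WT_none were closer to each other than any other replicates (chi-square per degree of freedom 5.92, against 49.1 to 175) and were kept as separate libraries. In bulk RNA, fewer mitochondria, fewer cells of a type and less RNA per cell cannot be told apart.

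The complex IV transcripts were the most abundant members in every group, and mt-Nd4l was the least abundant in 5 of 6. In TPM, transcripts scaled to a fixed total per library and corrected for gene length, mt-Co1, the catalytic subunit of complex IV, averaged 16250 ± 3161, 20390 ± 6348 and 18750 ± 3111 in KO_IFN, KO_IL4 and KO_none, against 18120 ± 8721, 22660 ± 3199 and 20500 ± 2605 in WT_IFN, WT_IL4 and WT_none (SD, n = 3 each). mt-Co2, which takes the electrons from cytochrome c, came next, and its range overlapped that of mt-Co1 in all 6 groups. mt-Co3 was next in all 6 groups, at group means from 9497 TPM in KO_none to 16130 TPM in WT_IL4. mt-Nd1, part of the site where ubiquinone is bound, led the complex I members at 4360 ± 855 TPM in KO_IFN to 9586 ± 2315 TPM in WT_IL4. mt-Nd4, a proton-pumping subunit, followed in every group, and its range overlapped that of mt-Nd1 in WT_IFN and WT_none.

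The order of the remaining members differed among groups, and most neighbours in it overlapped. mt-Nd2 and mt-Nd5, further proton-pumping subunits, had medians over the 18 libraries of 2587 and 2170 TPM. mt-Nd6, the member on the other strand, had a median of 2114 TPM. mt-Nd3, a small subunit whose loop takes part in the switch between active and resting forms of the enzyme, ranked 6 in WT_none (3134 ± 886 TPM) and last in KO_none (1347 ± 329 TPM). mt-Nd4l, the smallest member, was last in the other 5 groups and had a median of 1336 TPM. Of the 10 members 8 had their lowest library in WT_IFN 6, and 7 had their highest in WT_IL4 8. The libraries were made from poly(A)-selected RNA, and in human cells the ND6 message is known to lack a long poly(A) tail, so the level of mt-Nd6 may not compare with the others.

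**Figure D1:**
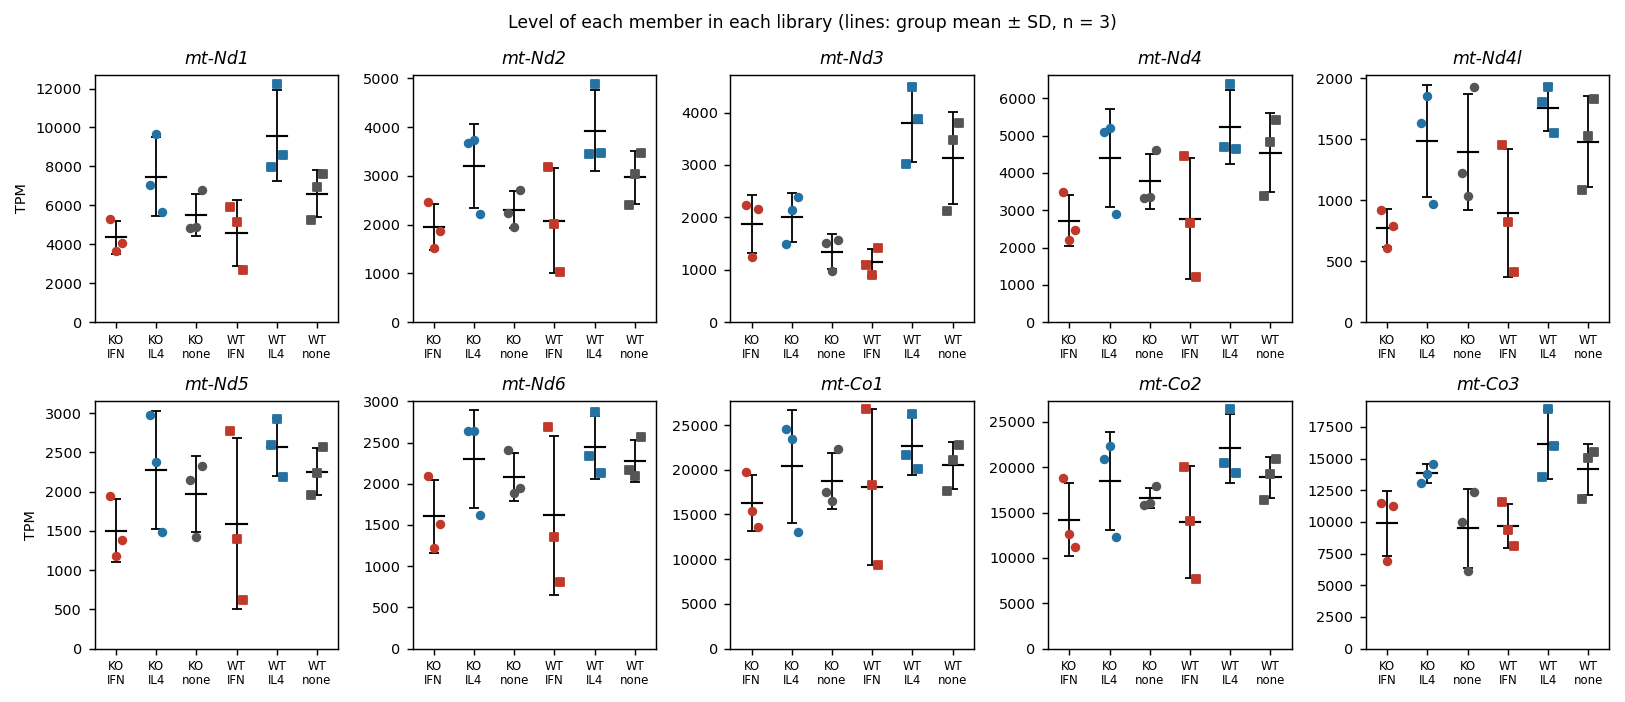
TPM of the 10 members in each library, with an axis per gene. Circles are KO and squares WT, red is IFN, blue IL4 and grey untreated; black lines give the group mean ± SD (n = 3). The WT_IFN libraries spread most for most members (mt-Co1 from 9333 to 26770 TPM), and mt-Nd3 is at 1561 TPM or less in all 3 WT_IFN and all 3 KO_none libraries.

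Most members moved together from library to library, with mt-Nd3 and, to a smaller extent, its neighbour mt-Co3 apart. Over the 18 libraries, the Pearson correlation of log2 CPM between pairs of the other 9 members had a median of 0.912 (36 pairs, 0.62 to 0.969), and pairs with mt-Nd3 had a median of 0.573 (9 pairs, 0.431 to 0.872). With group means removed these medians were 0.898 and 0.198. The highest correlation of mt-Nd3 was with mt-Co3 (0.872, and 0.799 with group means removed), whose correlations with the other 8 members ran from 0.62 to 0.818. These correlations are descriptions, and the points share depth, scaling and, for neighbours, precursor RNA. Relative to the mean of the other 9 members, the log2 TPM of mt-Nd3 ranged over 1.90 between libraries, from -2.36 in WT_IFN 4 to -0.46 in WT_IFN 6. The next widest range was that of mt-Co3, at 1.32, and the narrowest was that of mt-Nd2, at 0.38.

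Together the 10 members held 1.74% to 6.03% of all counts in a library, and the extremes were WT_IFN 6 and WT_IL4 8. The share was 3.75%, 2.42% and 2.66% in KO_IFN 4 to 6, 4.35%, 4.83% and 3.04% in KO_IL4 7 to 9, and 2.97%, 2.71% and 3.99% in KO_none 1 to 3. In WT_IFN 4 to 6 it was 4.17%, 3.00% and 1.74%, in WT_IL4 7 to 9 it was 4.25%, 6.03% and 4.50%, and in WT_none 1 to 3 it was 3.34%, 4.39% and 4.81%. The groups overlapped in each comparison of a cytokine with no treatment and of KO with WT, while WT_IL4 lay wholly above WT_IFN. Against untreated cells the mean difference over genotypes was -0.35 on the log2 scale after IFN (exact stratified permutation test, two-sided, p = 0.17) and 0.28 after IL4 (p = 0.125). Neither passed the threshold of 0.05.

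Averaged over treatments, KO minus WT was -0.21 by the same exact test (p = 0.256), and lower in KO in 7 of 9 same-numbered pairs (exact sign-flip permutation over pairs, p = 0.148). The 3 untreated pairs among them are not accepted as pairs, and of the 6 pairs after a cytokine 4 were lower in KO. Without WT_IFN 6, the library with the lowest share, this difference was -0.32 with an exact p of 0.0442, so the outcome of that test rests on that library. The KO minus WT difference was 0.05 after IFN, -0.29 after IL4 and -0.38 without treatment. The shares of WT libraries with Y-linked transcripts (3.00% to 6.03%, n = 5) overlapped those of WT libraries without them (1.74% to 4.81%, n = 4).

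The ratio of summed complex I to summed complex IV counts followed the treatment, which was not a shift of every member of a complex. The summed complex I counts divided by the summed complex IV counts averaged 0.332 ± 0.0287 in KO_IFN and 0.314 ± 0.0326 in WT_IFN, 0.414 ± 0.0174 in KO_IL4 and 0.443 ± 0.0192 in WT_IL4, and 0.380 ± 0.00621 in KO_none and 0.396 ± 0.0245 in WT_none (SD, n = 3 each). On the log2 scale the KO_IFN libraries stood at -1.55, -1.74 and -1.50, the KO_IL4 libraries at -1.31, -1.21 and -1.31, and the KO_none libraries at -1.39, -1.42 and -1.37. The WT_IFN libraries stood at -1.54, -1.66 and -1.84, the WT_IL4 libraries at -1.22, -1.11 and -1.20, and the WT_none libraries at -1.43, -1.33 and -1.25. In both genotypes every IFN library lay below, and every IL4 library above, every untreated library.

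The ratio fell by 0.27 on the log2 scale after IFN, to 0.83 of the untreated ratio, and rose by 0.14 after IL4, to 1.10 times the untreated ratio (mean over genotypes). Each test gave p = 0.005, the smallest that the 400 arrangements of an exact stratified permutation allow, and the direction was that of 3 of 3 libraries in each genotype. This p takes libraries of different treatments as independent, which the labels do not give and which was not checked. In KO, 8 markers of dividing cells summed to 251, 245 and 262 CPM in libraries 1, 4 and 7. They summed to 599, 242 and 670 CPM in 2, 5 and 8, and to 1023, 720 and 1003 CPM in 3, 6 and 9. If sources were shared across treatments, this p would not hold. Within a genotype the differences were -0.20 in KO and -0.34 in WT after IFN, and 0.12 in KO and 0.16 in WT after IL4, and 3 against 3 libraries cannot go below an exact p of 0.1. The difference between genotypes was -0.02 over all treatments (exact stratified permutation, p = 0.61), made of 0.08 after IFN, -0.10 after IL4 and -0.06 without treatment. After IL4 the same-numbered pairs 7, 8 and 9 differed by -0.09, -0.10 and -0.11, lower in KO in 3 of 3, and 3 pairs are too few for a test to pass. The pairs after IFN differed by -0.01, -0.08 and 0.34. By exact permutation the IFN and IL4 responses did not differ detectably between genotypes (difference 0.14, p = 0.265, and -0.04, p = 0.66). Among WT libraries with Y-linked transcripts, IFN 4 and 5 lay below untreated 1, and IL4 7 and 8 above it. Among those without, IFN 6 lay below untreated 2 and 3, and IL4 9 above them. Each side held 1 or 2 libraries, and 0 KO libraries had such transcripts, so the part of Y-linked status was not tested. Being taken within a library, the ratio does not depend on the scaling between libraries. The sums are led by their largest members, and mt-Co1 held most complex IV counts. A ratio without mt-Co1 was not computed, so its part in the separation of the groups was not tested. In WT after IFN the log2 fold changes of mt-Co2 (-0.40) and mt-Co3 (-0.48) were near those of mt-Nd1 and mt-Nd2 (-0.48 each), while mt-Co1 fell less (-0.14). In KO after IFN the complex IV members (0.15 to 0.43) lay above every complex I member but mt-Nd3 (0.88). After IL4 in WT, mt-Nd1 (0.67) and mt-Nd2 (0.53) lay above the complex IV members (0.27 to 0.35), and mt-Nd6 (0.22) below.

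**Figure D2:**
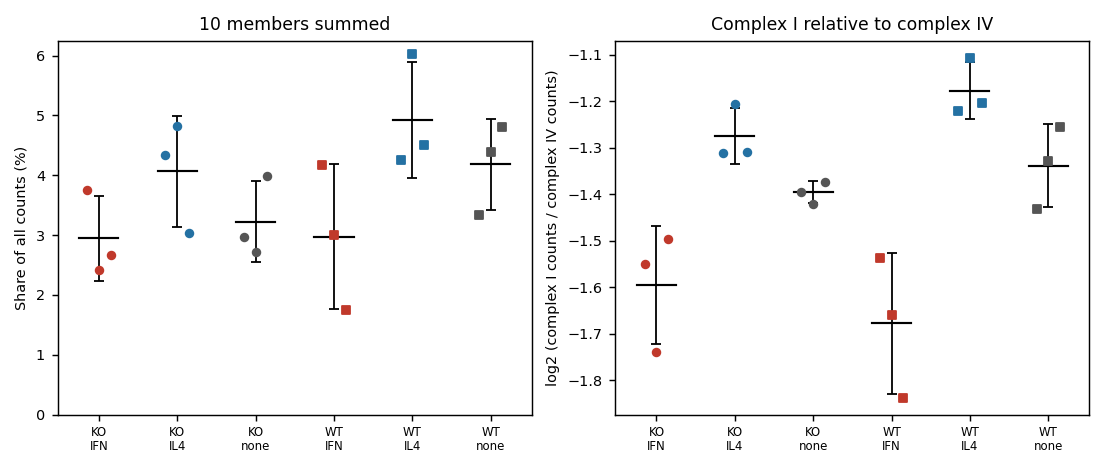
Left, share of all counts (%) held by the 10 members, and right, log2 of summed complex I over summed complex IV counts, per library. Circles are KO and squares WT, red is IFN, blue IL4 and grey untreated, with group mean ± SD (n = 3). The shares of cytokine-treated and untreated libraries overlap within each genotype, as do those of KO and WT within each treatment, while within each genotype the IFN ratios lie below and the IL4 ratios above the untreated ones.

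The labels name M1 and M2 cytokines as the treatment, and the IFN comparisons set one of them against no treatment. In WT cells mt-Nd3 fell: it had 119, 96.8 and 180 CPM in WT_IFN 4 to 6, against 209, 379 and 446 CPM in WT_none 1 to 3. All WT_IFN libraries lay below all WT_none libraries, as for 1 of 10 members and 18.6% of all tested genes in this direction. The log2 fold change was -1.39 (SE 0.334), a level of 0.382 of the untreated one, with adjusted p = 0.00781 by the quasi-likelihood test of edgeR over 12514 genes. It was the only member called in this comparison, 1 of 10, where 18.6% of all tested genes were called in either direction and 7.55% were called lower. It was also the 1 member with an unadjusted p under 0.05, where 30.9% of all tested genes had one. DESeq2 and limma on log2(TPM + 1) also called 1 member. mt-Nd3 kept its call under all 28 alternatives run for this comparison, with log2 fold changes from -1.68 to -1.16 and adjusted p from 0.000379 to 0.0452. None of these alternatives joined WT_none 2 and 3, the closest replicates of the series, into 1 library. Whether the call would hold if they shared a source was not tested.

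The other 9 members had log2 fold changes from -0.72 (mt-Nd4l) to -0.14 (mt-Co1) in WT and none passed the test. All 10 were below 0, as were 51.9% of all tested genes, and the median of the 10 was -0.48 where that of all genes was -0.02. Leaving out WT_IFN 4 added a call of mt-Nd6, at -0.98 with edgeR adjusted p = 0.0327. The library WT_IFN 6 was the lowest of the series in 8 members, with 1035 TPM of mt-Nd2, 620 TPM of mt-Nd5 and 9333 TPM of mt-Co1. A list of 12 fibroblast markers also differed between these groups, with a summed level of 53.2 to 107 CPM in WT_IFN and 546 to 585 CPM in WT_none and Lum at 0 in both, and markers of bone-forming cells (8 genes) summed to 313 to 450 CPM in WT_IFN and 922 to 1248 CPM in WT_none. Spp1 alone held most of the bone-forming sum, at a mean of 388 CPM in WT_IFN and 1082 CPM in WT_none, and 5 of 5 tested markers of that list were below 0. The part of either list in the result was not tested. Among libraries with Y-linked transcripts mt-Nd3 stood at 119 and 96.8 CPM in IFN 4 and 5 against 209 CPM in untreated 1, and among those without at 180 CPM in IFN 6 against 379 and 446 CPM in untreated 2 and 3. The part of Y-linked status was not tested.

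In KO cells no member was called after IFN by edgeR, where 21.6% of all tested genes were, and 1 of 10 had an unadjusted p under 0.05, against 32.7% of all tested genes. mt-Nd3 had 272, 149 and 262 CPM in KO_IFN 4 to 6, against 131, 92.6 and 149 CPM in KO_none 1 to 3. The lowest treated and the highest untreated library lay side by side, and the log2 fold change of 0.88 (SE 0.331) gave edgeR adjusted p = 0.073. DESeq2 called it (0.87, adjusted p = 0.0426), edgeR called it without KO_IFN 5 (1.10, adjusted p = 0.038), and limma called 0 members. The other 9 ran from -0.46 (mt-Nd4l) to 0.43 (mt-Co3). The median of the 10 was 0.08 with 7 above 0, against 47.4% of all tested genes. Scaling by total counts turned it to -0.20 with 2 above 0, and limma on log2(TPM + 1) to -0.30. Markers of bone-forming cells summed to 251 to 461 CPM in KO_IFN and 788 to 1118 CPM in KO_none, with 5 of 5 tested ones below 0. Of the dividing-cell markers 8 of 8 were below 0, where 52.5% of all tested genes were. Of 10 tested fibroblast markers 4 were above 0 and 6 below. The part of these lists in the values of the members was not tested.

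After IL4 the values of the members were higher than in untreated cells in both genotypes but none was called. In KO cells log2 fold changes ran from 0.34 (mt-Co1) to 0.87 (mt-Nd3), with a median of 0.44 where that of all genes was 0.01. All 10 were above 0, as were 51% of all tested genes, and 4 had an unadjusted p under 0.05, as did 22.4% of all tested genes. edgeR called 0 of 10, where 9.48% of all tested genes were called. mt-Co3, a core subunit of complex IV, came nearest, with 4720, 5680 and 5406 CPM in KO_IL4 7 to 9, against 3071, 1984 and 4175 CPM in KO_none 1 to 3. The groups did not overlap, and the log2 fold change was 0.78 (SE 0.271, edgeR adjusted p = 0.0887). DESeq2 called it (adjusted p = 0.0339), as did edgeR without KO_none 3 (1.05, adjusted p = 0.0388), and limma called 0 members. Without the library labelled KO_IL4 9 it was at 0.74 (edgeR adjusted p = 0.192).

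mt-Nd3 also stood higher in KO_IL4 without overlap, at 156, 273 and 252 CPM against 131, 92.6 and 149 CPM in KO_none (log2 0.87, SE 0.331, edgeR adjusted p = 0.122). These were 2 of 10 members whose KO_IL4 and KO_none libraries did not overlap in the higher direction, against 11.3% of all tested genes. In WT cells log2 fold changes ran from 0.22 (mt-Nd6) to 0.67 (mt-Nd1), with a median of 0.33 where that of all genes was -0.01. edgeR called 0 of 10 members, where 8.49% of all tested genes were called, and 1 member had an unadjusted p under 0.05, against 20.9% of all tested genes. DESeq2 and limma also called 0. All 10 were above 0, as were 49% of all tested genes. mt-Nd1 had 3769, 6681 and 4519 CPM in WT_IL4 7 to 9, against 2307, 3368 and 3767 CPM in WT_none 1 to 3, with the highest untreated library just under the lowest treated one (log2 0.67, SE 0.304, edgeR adjusted p = 0.224). It was 1 of 10 members whose WT_IL4 libraries all lay higher, against 13.8% of all tested genes. Dendritic cell markers (8 genes) summed to 659 to 1310 CPM in KO_IL4 and 669 to 1024 CPM in WT_IL4, against 58.2 to 106 CPM in KO_none and 38.4 to 115 CPM in WT_none. Itgax alone held most of the IL4 sums, at a mean of 831 CPM in KO_IL4 and 764 CPM in WT_IL4. Of the 6 tested markers of this list 4 were above 0 and 2 below 0 after IL4 in each genotype. Their part in the IL4 values was not tested. In WT fibroblast markers summed to 137 to 275 CPM in WT_IL4 against 546 to 585 CPM in WT_none, with 0 of 10 tested ones above 0. In KO they summed to 101 to 546.5 CPM in KO_IL4 against 61.9 to 221 CPM in KO_none, with 10 of 10 above 0. The 8 bone-forming markers summed to 766 to 1456 CPM in WT_IL4, which overlapped 922 to 1248 CPM in WT_none. Of the 5 tested ones edgeR called 2 lower (Alpl and Ibsp, means of 4.45 and 19.4 CPM in WT_none), and 1 was above 0. The part of these lists was not tested either. The medians stayed above 0 under all 28 alternatives, from 0.19 to 0.70 in KO and from 0.13 to 0.49 in WT.

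The comparisons of KO with WT asked whether loss of L13a moved the transcripts, and edgeR called 0 of 10 members in each of them. Rpl13a itself was not called within a treatment, at -1.48 untreated (edgeR adjusted p = 0.256), -0.90 after IFN (adjusted p = 0.772) and -0.95 after IL4. It was called over the mean of the treatments (-1.11, edgeR adjusted p = 0.046). The absence of calls therefore does not show that the members were unmoved. The shares of all tested genes called were 0.0639% after IFN, 0.0639% after IL4 and 0.0799% without treatment, and 0.392% over the mean of the 3 treatments. In untreated cells the members were lower in KO by value, with log2 fold changes from -1.47 (mt-Nd3) to -0.32 (mt-Co1) and a median of -0.42. All 10 were below 0, as were 49.1% of all tested genes, and 2 had an unadjusted p under 0.05 (mt-Nd3 and mt-Co3), against 7.54% of all tested genes. mt-Nd3 stood at 131, 92.6 and 149 CPM in KO_none 1 to 3, against 209, 379 and 446 CPM in WT_none 1 to 3. The groups did not overlap, as for mt-Nd6 (2 of 10 members, against 7.66% of all tested genes). The log2 fold change of -1.47 (SE 0.334) was the 38th smallest unadjusted p of the comparison, and its edgeR adjusted p was 0.154, while DESeq2 gave adjusted p = 0.00516 and limma called 0 members. Fibroblast markers summed to 61.9 to 221 CPM in KO_none and 546 to 585 CPM in WT_none. The 8 markers of dividing cells summed to 251 to 1023 CPM in KO_none and 681 to 954 CPM in WT_none. Markers of bone-forming cells summed to 788 to 1118 CPM and 922 to 1248 CPM, which overlapped. Of the 5 tested ones 4 were below 0 and 1 above. edgeR called 2 of them lower, Alpl (-3.86, adjusted p = 0.00861) and Ibsp (-8.15, adjusted p = 0.0152). The part of these lists in the values of the members was not tested.

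After IL4 the median was -0.32 in KO against WT with all 10 below 0, as were 48.9% of all tested genes. mt-Nd3 had 156, 273 and 252 CPM in KO_IL4 7 to 9, against 329, 555 and 455 CPM in WT_IL4 7 to 9, again without overlap (log2 -0.98, SE 0.33, edgeR adjusted p = 1; -1.05 without the library labelled KO_IL4 9). It was 1 of 10 such members, against 2.73% of all tested genes, and the 1 member with an unadjusted p under 0.05, against 2.46%. DESeq2 and limma called 0. In this comparison 9 of 10 tested fibroblast markers were above 0 in KO and 1 below. Markers of dividing cells summed to 262 to 1003 CPM in KO_IL4 and 762 to 923 CPM in WT_IL4, with 8 of 8 below 0. The part of these lists in the IL4 values was not tested. After IFN the median was 0.10 with 8 members above 0, against 52.8% of all tested genes, and with 5 above 0 when scaled by total counts. Markers of dividing cells summed to 242 to 720 CPM in KO_IFN and 743 to 897 CPM in WT_IFN, and 10 of 10 tested fibroblast markers were above 0 in KO (median 0.85), and their part in these values was not tested. mt-Nd3 stood at 272, 149 and 262 CPM in KO_IFN 4 to 6, against 119, 96.8 and 180 CPM in WT_IFN 4 to 6. These groups overlapped (log2 0.79, SE 0.331, edgeR adjusted p = 0.757), 1 member had an unadjusted p under 0.05, against 5.79% of all tested genes, and DESeq2 and limma called 0. Averaged over the treatments the median was -0.23 and mt-Nd3 was at -0.55 (SE 0.19, edgeR adjusted p = 0.295), the 1 member with an unadjusted p under 0.05, against 10.2% of all tested genes. All 10 were below 0 there, as were 47.4% of all tested genes, and DESeq2 and limma called 0.

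**Figure D3:**
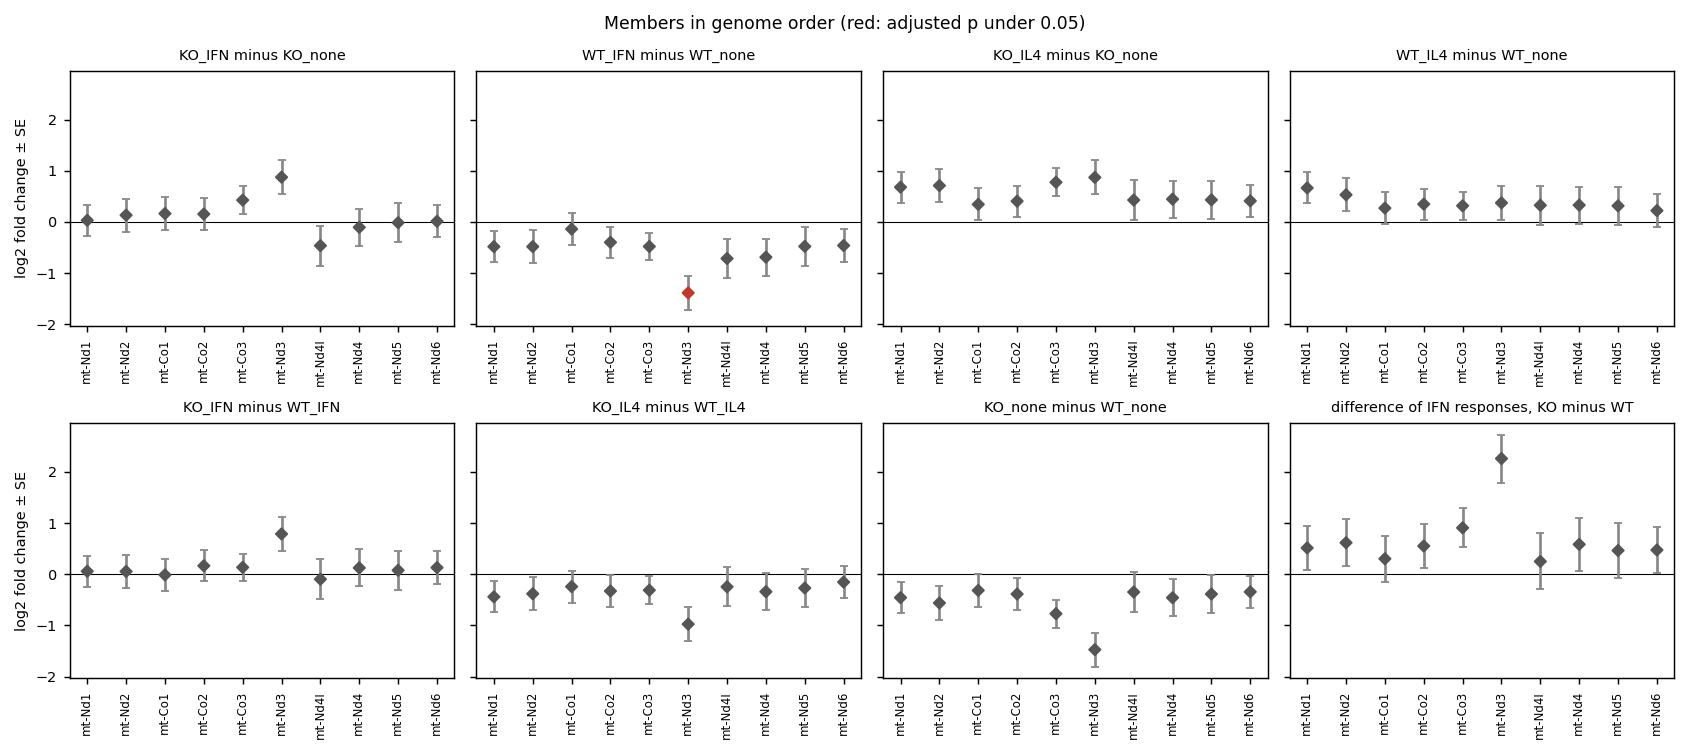
log2 fold change ± SE of the 10 members, in genome order, in 7 comparisons of groups and in the difference of the IFN responses. Red marks an adjusted p under 0.05 (edgeR). The red point is mt-Nd3 in WT_IFN minus WT_none (-1.39), and mt-Nd3 lies farthest from 0 in most panels.

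mt-Nd3 thus had its lower values in WT_IFN and KO_none. The difference of its IFN responses, KO minus WT, was 2.26 on the log2 scale (SE 0.47), the 6th smallest unadjusted p (0.000207) of 12514 genes. Its edgeR adjusted p was 0.391, and edgeR called 0 genes (0%) for this difference. DESeq2 called mt-Nd3 (2.27, adjusted p = 0.00269) as 1 of 10 members and limma called 0. Beside it, mt-Co3 had a difference of 0.91 (SE 0.381, edgeR adjusted p = 0.934) as the other member of 2 with an unadjusted p under 0.05, against 4.93% of all tested genes. The differences of the other 8 ran from 0.25 (mt-Nd4l) to 0.62 (mt-Nd2), and all 10 were above 0, as were 48.3% of all tested genes. For the IL4 responses the differences ran from 0.02 (mt-Nd1) to 0.50 (mt-Nd3), edgeR, DESeq2 and limma called 0 members, 0% of all tested genes were called, and 0 members had an unadjusted p under 0.05, against 1.99%. All 10 were above 0, as were 49.8% of all tested genes, and limma on log2(TPM + 1) put 4 of 10 above 0. The untreated groups are shared by the comparisons from which these differences are made.

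Set against the other 9 members of the same library, mt-Nd3 showed where its level departed from the rest, a measure chosen after its values had been seen. log2 TPM of mt-Nd3 minus the mean of the others was -1.0, -1.22 and -0.64 in KO_IFN 4 to 6, -2.04, -1.56 and -0.70 in KO_IL4 7 to 9, and -1.55, -1.95 and -1.78 in KO_none 1 to 3. It was -2.36, -2.0 and -0.46 in WT_IFN 4 to 6, -0.96, -0.75 and -0.55 in WT_IL4 7 to 9, and -1.06, -0.66 and -0.70 in WT_none 1 to 3. KO_none lay wholly below WT_none, by 0.95, and wholly below KO_IFN, by 0.81, with the smallest exact permutation p that 3 against 3 libraries allow (0.1). In WT_IFN, libraries 4 and 5 had a low relative level and library 6 the highest of the series, so the groups overlapped (difference from WT_none -0.80, exact permutation p = 0.4). In WT_IFN 6 mt-Nd3 had 180 CPM, the highest of the WT_IFN libraries, while 8 other members had their lowest TPM of the series there.

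**Figure D4:**
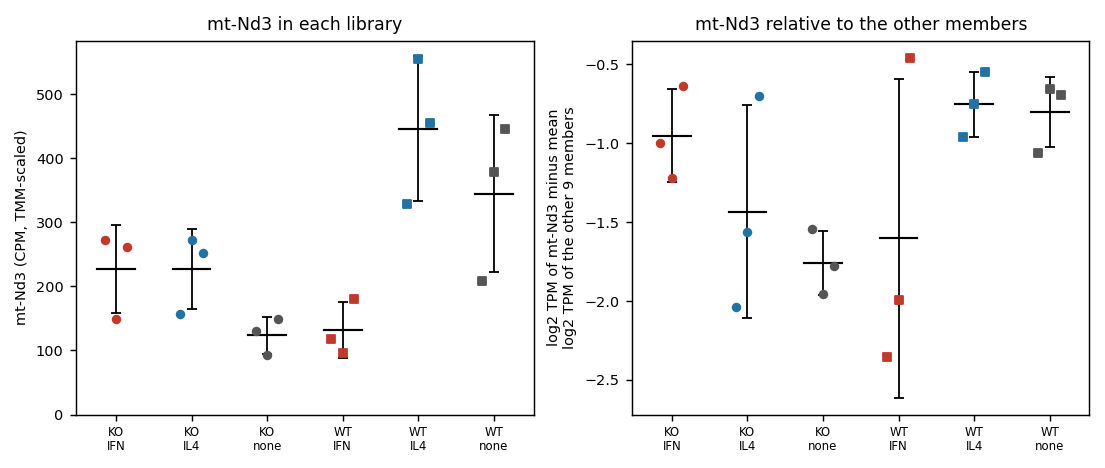
Left, mt-Nd3 in CPM (TMM-scaled), and right, log2 TPM of mt-Nd3 minus the mean log2 TPM of the other 9 members, per library. Circles are KO and squares WT, red is IFN, blue IL4 and grey untreated, with group mean ± SD (n = 3). WT_IFN lies below WT_none on the left, while on the right WT_IFN 6 stands apart from WT_IFN 4 and 5.

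The other protein genes of the mitochondrial genome are mt-Atp6 and mt-Atp8, subunits of ATP synthase, and mt-Cytb, the core of complex III. edgeR called 0 of these 3 in each of the 10 comparisons, and at most 2 had an unadjusted p under 0.05 (mt-Atp6 and mt-Cytb in WT_IFN minus WT_none). After IFN in WT mt-Atp6 was at -0.69 (SE 0.286, edgeR adjusted p = 0.109) and mt-Cytb at -0.78 (SE 0.346, adjusted p = 0.137). In KO_none minus WT_none mt-Atp6 was at -0.80 (edgeR adjusted p = 0.487), near mt-Co3 (-0.77), with mt-Atp8 at -0.73 and mt-Cytb at -0.43. mt-Atp6 responded to IFN 0.97 higher in KO than in WT (edgeR adjusted p = 0.928), mt-Co3 0.91, mt-Cytb 0.55 and mt-Atp8 0.39 higher. KO_IL4 lay wholly above KO_none for mt-Atp8 (1.08) and mt-Atp6 (0.57), but not for mt-Cytb (0.48). There mt-Atp8 (edgeR adjusted p = 0.0769) came nearer to a call than mt-Co3 (0.0887). The ribosomal RNAs of the mitochondrion were not analysed here.

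Of 36 tested nuclear complex I subunits, edgeR called 14 higher and 0 lower in KO_IFN against KO_none, and 1 higher and 0 lower in WT_IFN against WT_none. Of 15 tested nuclear complex IV subunits it called 10 higher and 0 lower in KO and 2 higher and 0 lower in WT. Of all tested genes 21.6% were called in KO and 18.6% in WT in either direction, and 12.6% and 11.1% were called higher. The counts in KO lay above both shares. In WT the count of complex I lay below both, and that of complex IV lay between them. No test of the lists against other genes was run. Cox8a, a complex IV subunit, rose in both, by 1.153 (SE 0.198, edgeR adjusted p = 0.000534) in KO and by 0.81 (SE 0.196, adjusted p = 0.00823) in WT. Ndufs3, a core subunit of complex I, rose by 1.04 in KO and 0.77 in WT (edgeR adjusted p = 0.00177 and 0.0148). Cox4i2, the second call in WT, had a mean of 0.83 CPM or less in every group. The medians were 0.68 and 1.00 in KO and 0.16 and 0.35 in WT for complexes I and IV, and the median of nuclear complex I in WT turned below 0 in 2 of 28 alternatives, with -0.04 under total counts. Over these alternatives the calls in KO ran from 7 to 19 for complex I and from 5 to 11 for complex IV, and in WT from 0 to 2 and from 1 to 3. The differences of the responses were above 0 for 32 of 36 and 15 of 15 genes (medians 0.37 and 0.77), with 0 called by edgeR, so a difference between genotypes was not shown.

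After IL4, edgeR called 4 of 36 nuclear complex I subunits higher in KO and 0 in WT, with medians of 0.50 and 0.32, where 9.48% of all tested genes were called in KO and 8.49% in WT. Of 15 nuclear complex IV subunits it called 4 higher in KO and 2 in WT, with medians of 0.67 and 0.36, and Cox8a was among them in both (0.94 and 0.67, edgeR adjusted p = 0.00622 and 0.0459). Over 28 alternatives the calls in KO ran from 0 to 8 for complex I and from 1 to 8 for complex IV, and in WT from 0 to 2 for complex IV. In WT 0 complex IV genes were called under DESeq2 size factors, total counts or median-normalized TPM. In the 3 comparisons of KO with WT within a treatment, edgeR called 0 genes of either list. In untreated cells 34 of 36 and 15 of 15 stood below 0, with medians of -0.26 and -0.56, against 49.1% of all tested genes below 0. In IFN-treated cells 29 of 36 and 12 of 15 stood above 0 in KO against WT, where 52.8% of all tested genes did.

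Calls were also counted in lists of genes that copy, transcribe and process the mitochondrial genome, with no test of the lists against other genes. Of 19 tested genes of mitochondrial DNA transcription and replication, edgeR called 2 higher and 1 lower after IFN in KO, and 1 higher and 1 lower in WT, where 21.6% and 18.6% of all tested genes were called in either direction. Ppargc1b, a coactivator of mitochondrial biogenesis genes, rose after IFN by 2.80 in KO and 3.08 in WT (edgeR adjusted p = 7.04e-06 and 3.59e-06), and after IL4 by 2.69 in KO and 3.11 in WT (4.49e-05 and 1.22e-05). Twnk, the helicase of mitochondrial DNA replication, fell after IFN by 0.69 in KO and by 1.19 in WT (edgeR adjusted p = 0.0152 and 0.000272). Of 20 tested genes of mitochondrial RNA processing and stability, edgeR called 3 higher and 0 lower after IFN in KO, and 5 higher and 1 lower in WT. Against the same shares of 21.6% and 18.6%, the count in KO lay below and the count in WT above. Ptcd2, a pentatricopeptide protein of mitochondrial RNA, rose by 1.77 in KO and 1.49 in WT (edgeR adjusted p = 4.88e-08 and 3.53e-07). Pnpt1, the mitochondrial polynucleotide phosphorylase, rose by 0.91 in KO and 0.54 in WT (adjusted p = 0.000108 and 0.00735). After IL4 edgeR called 3 of the 20 processing genes higher and 0 lower in each genotype. It called 2 of the 19 transcription and replication genes higher and 0 lower in each. Of all tested genes 9.48% were called in KO and 8.49% in WT.

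Of the assembly factors, edgeR called 1 of 15 for complex I higher after IFN in KO and 1 lower in WT. For complex IV it called 6 of 21 higher and 1 lower in KO, and 4 higher and 0 lower in WT. The shares of all tested genes called were 21.6% in KO and 18.6% in WT. Coa5, a complex IV assembly factor, rose by 2.09 in both (edgeR adjusted p = 1.53e-08 in KO and 1.78e-08 in WT). After IL4 edgeR called 1 complex I factor (Tmem126b) and 1 complex IV factor (Coa5) higher in KO, and 1 complex I factor (Ndufaf4) higher in WT, where 9.48% and 8.49% of all tested genes were called. The fold changes of these nuclear genes and of the members come from the same fit.

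Among 12083 tested genes outside the mitochondrial genome (symbols that begin with Gm and a digit or end in Rik left out), the level of Ptcd3 ran most like the mean log2 CPM of the members over the 18 libraries (Pearson r = 0.83), followed by Ap3s1 (0.818), Tmem144 (0.806), Tfb2m (0.802) and Timm21 (0.779). Ptcd3 encodes a protein of the small mitochondrial ribosomal subunit and Tfb2m the initiation factor of mitochondrial transcription. Ptcd3 stood at 20.3 to 25.3 CPM in KO_IFN, 27.3 to 31.5 CPM in KO_IL4 and 23.8 to 29.5 CPM in KO_none, against 16.3 to 29.7 CPM in WT_IFN, 27.3 to 33.9 CPM in WT_IL4 and 24.5 to 28.8 CPM in WT_none. Its lowest library was WT_IFN 6 and its highest WT_IL4 8, as for the summed share of the members. The genes running most opposite were Apod (-0.86), Galnt2 (-0.815), Dok1 (-0.813), Thap3 (-0.806) and Zfp821 (-0.797), of which Apod had 1.45 CPM at most. These correlations describe 18 libraries that share groups and scaling, and the genes were picked as the extremes of the ranking.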

How the data were processed

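The authors deposited RSEM expected counts and TPM per gene, and a signal that they name median-normalized TPM. Per the submitters' processing notes Bowtie 0.12.8, RSEM 1.2.3 and the mm10 build were used; per the labels' protocols the RNA was poly(A)-selected. How reads with several matches were counted and whether strand was used are not given in the sources used here. Of the expected counts 21.5% were not whole (tolerance 1e-06), and they were rounded. Library totals of 18098711 to 28477342 counts leave counting error small beside the spread of replicates (biological coefficient of variation 0.301).

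Counts were filtered with filterByExpr, scaled by TMM and modelled in edgeR 4.0.16 (R 4.3.3; quasi-likelihood, robust) with a coefficient for each of 6 groups over all 18 libraries. P-values were adjusted by Benjamini and Hochberg over 12514 genes within each of 10 comparisons, and calls were made at adjusted p below 0.05. DESeq2 1.42.0 and limma 3.58.1 on log2 of TPM plus 1 or 0.1, and on the median-normalized signal, were alternatives. CPM is the TMM-scaled value. Shares and the ratio of the complexes were tested by exact permutation within strata. Sequences and positions were read from GENCODE vM21, in which all 10 members matched by identifier; near copies were sought with BLAST 2.17.0 at an E-value limit of 1e-20. On simulated data for KO_none minus WT_none (12330 genes) 7.58% of genes changed 1.5-fold, 48.4% changed 2-fold and 83.3% changed 4-fold were recovered with 7 false calls, and for WT_IFN minus WT_none (12324 genes) 11.9%, 47.7% and 80.3% with 9.

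The members, the lists and the tests were chosen with earlier results of these data known. The text names all members, the other mitochondrial genes in the table, at most 3 called genes with the lowest p per list and comparison, and the 5 genes most and least like the mean of the members. Same-numbered KO and WT libraries were checked as pairs by correlating, over 12514 genes, how each departed from its group mean. These were 0.296, 0.135 and 0.276 after IFN and 0.586, 0.323 and 0.449 after IL4, each above 0.1, and the numbers were taken as pairing there. The numbers come from the titles. In untreated cells the correlations were 0.597, 0.042 and 0.358, and the numbers were not taken as pairing. The main edgeR tests and the stratified permutation tests did not use the pairing in any treatment. It entered in alternatives only, as the replicate block in edgeR and the sign-flip permutation over pairs.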

Additional observations from a re-analysis of the deposited data

Results flagged for a closer look

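The IFN response of mt-Nd3 relative to the other 9 members stood apart between the genotypes by value, in a gene picked as the most divergent member. The difference, KO minus WT, was 1.605 on the log2 scale, and permuting genotype within treatment gave an exact two-sided p = 0.035 (400 arrangements, smallest p 0.005). KO_IFN stood 0.81 above KO_none, and WT_IFN 0.80 below WT_none. Gene and measure were chosen after the values had been seen, so this p is a description and does not show that the responses differ. In the fit across all genes the difference in the level of mt-Nd3 itself (2.26) had an edgeR adjusted p of 0.391. Over the 12 fits that each left out 1 library the difference ran from 1.23 to 2.18 and p from 0.005 to 0.09, and p stayed under 0.05 in 3 of them, those without KO_none 1, WT_IFN 6 or WT_none 1. With fewer arrangements the test has a coarser scale in these fits. Against mt-Co3 alone the difference was 1.28 (exact permutation p = 0.005), and against mt-Nd4l alone 1.86 (p = 0.03).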

How the results depend on the processing

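The ratio of complex I to complex IV kept its direction and its side of the threshold under every alternative run. It ran from -0.31 to -0.23 after IFN and from 0.12 to 0.16 after IL4 with 1 library left out, and was -0.24 and 0.13 from TPM and -0.27 and 0.15 without mt-Nd6. No alternative left out mt-Co1, so how far the ratio rests on that gene was not tested. KO minus WT ran from -0.05 to 0.0 for the ratio and from -0.319 to -0.109 for the summed share, and the share passed the threshold without WT_IFN 6. The share ran from -0.495 to -0.18 after IFN and from 0.206 to 0.382 after IL4. Among counts of called members, DESeq2 gave 1 in place of 0 in KO_none minus WT_none, KO_IFN minus KO_none and the difference of IFN responses (mt-Nd3 in each), and 1 in KO_IL4 minus KO_none (mt-Co3). With 1 library left out the counts ran from 0 to 1 in KO_IFN minus KO_none and in KO_IL4 minus KO_none, from 1 to 2 in WT_IFN minus WT_none, and stayed at 0 in the others. The replicate block gave 1 in KO_none minus WT_none, mt-Nd3 at -1.43 with edgeR adjusted p = 0.0223, where the numbers were not taken as pairing; by number, untreated KO 1 correlated best with WT 1, KO 2 best with WT 3 (0.058), and KO 3 best with WT 2 (0.375). The block changed no other call, and for the share it gave -0.205 with an exact p of 0.148 over 9 pairs, 3 of them untreated. The cause of these changes was not tested, beyond the smaller number of libraries in some fits. Of 2850 log2 fold changes of members under alternatives 132 had the opposite sign to the reported one, none of them called, and 8 uncalled values became called. Scaling by total counts moved the median of all genes by -0.287 in KO_IFN minus KO_none and -0.185 in WT_IFN minus WT_none, and limma on log2(TPM + 0.1) by -0.354 and -0.087. The older edgeR quasi-likelihood fit, added after the data were seen, left all counts as they were. Changes under 2-fold were mostly out of reach of the test in simulated data.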
